A study of Mus musculus with 6 samples.

Results

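Regulatory T cells (Tregs) of neonatal skin and of the skin-draining lymph nodes (SDLNs) were compared in 9 genes of the cytotoxic granule, called members below. They were the granzymes Gzma, Gzmb, Gzmc and Gzmk, the pore former Prf1, the granule components Srgn, Nkg7 and Ctsw, and the receptor gene Klrg1. The members were chosen by name, for their place in the cytotoxic granule programme, and are 9 of the 49315 genes counted. All were matched by Ensembl identifier, and 7 of them passed the filter on low counts and were tested. Gzma and Gzmk did not.

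Both groups were Tregs, sorted from mice aged 9 days that carry the Foxp3-GFP reporter, in which cells that express Foxp3, the lineage transcription factor of Tregs, make a green fluorescent protein. The labels give no treatment, all libraries carry the same genotype and batch number, and the background is C57BL/6J. Cells were gated as live, CD45+, CD4+ and Foxp3-EGFP+ after bead selection of CD45+ cells. Each tissue gave 3 libraries, lettered A, B and C and listed in that order throughout, and each sample pooled cells of several mice, so that p-values measure the spread between pools. Skin was digested with enzymes, so tissue and preparation cannot be told apart. The comparison addresses what Tregs that have entered skin express beside their counterparts in the draining nodes.

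Cytotoxic granules are secretory lysosomes best known from CD8 T cells and NK cells. Perforin, the product of Prf1, opens pores in a target cell, and granzymes are serine proteases that pass through them. Granzymes are made as inactive precursors, are trimmed by the dipeptidyl peptidase encoded by Ctsc, and are stored on the proteoglycan serglycin, the product of Srgn. Tregs can also make granzyme B, which has been linked to their suppressive activity.

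Sequencing depth differed between the tissues, and a count of 0 meant less in skin. Total counts lay between 3748669 and 11741784 in skin and between 47243498 and 116158706 in SDLNs. A count of 0 allows 3 counts, which is 0.255 to 0.800 CPM (counts-per-million, relative to each library's own total) in skin and 0.0258 to 0.0635 CPM in SDLNs, for counting error alone. Only 2911 to 5317 genes reached 1 CPM in skin, against 12397 to 13002 in SDLNs. The defining Treg gene Foxp3 had 0, 330 and 1 counts in skin libraries A to C, and Izumo1r, which encodes folate receptor 4, had 0 in all of them. Cd4, whose protein was part of the gate, had 0, 1861 and 2 counts there, against 302 to 537 CPM in SDLNs. Such spread between skin libraries goes beyond counting error, which the folds given below as at least do not allow for. Il2ra, Ctla4 and Ikzf2 were read in all 6 libraries. Markers of myeloid cells summed to between 32746 and 56477 CPM in skin and to between 428 and 767 CPM in SDLNs. Most of the skin sum, 41767 CPM on average, came from Cd74, H2-Ab1 and H2-Aa (means of 20958, 9870 and 5620 CPM). In bulk RNA, fewer cells of a type and less RNA per cell cannot be told apart.

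Whether a member was read in skin went with its level in SDLNs. Gzmb, Nkg7, Srgn and Klrg1 exceeded 3 counts in all 3 skin libraries, and Gzmc did so in 1. Gzma, Gzmk, Prf1 and Ctsw had 0 counts in every one. The first 4 averaged 125 to 579 CPM in SDLNs and the others at most 63.8 CPM. At 300 to 1000 CPM in SDLNs, 67.2% of genes exceeded 3 counts in every skin library. At 100 to 300 CPM 28.1% did, and at 30 to 100 CPM 8.63%. In the edgeR quasi-likelihood fit over 13572 genes, with Benjamini-Hochberg adjustment and a threshold of 0.05, 2 members, Gzmb and Nkg7, were higher in skin. That background was 141 genes, or 1.04% of those tested. Prf1 and Ctsw were higher in SDLNs, as were 45.3% of all genes tested. The median log2 fold change (skin over SDLN) of the 7 members tested was 0.91, beside -2.21 over all genes tested. Over the 1623 genes above 3 counts in all 6 libraries, the median was 0.28.

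**Figure D1:**
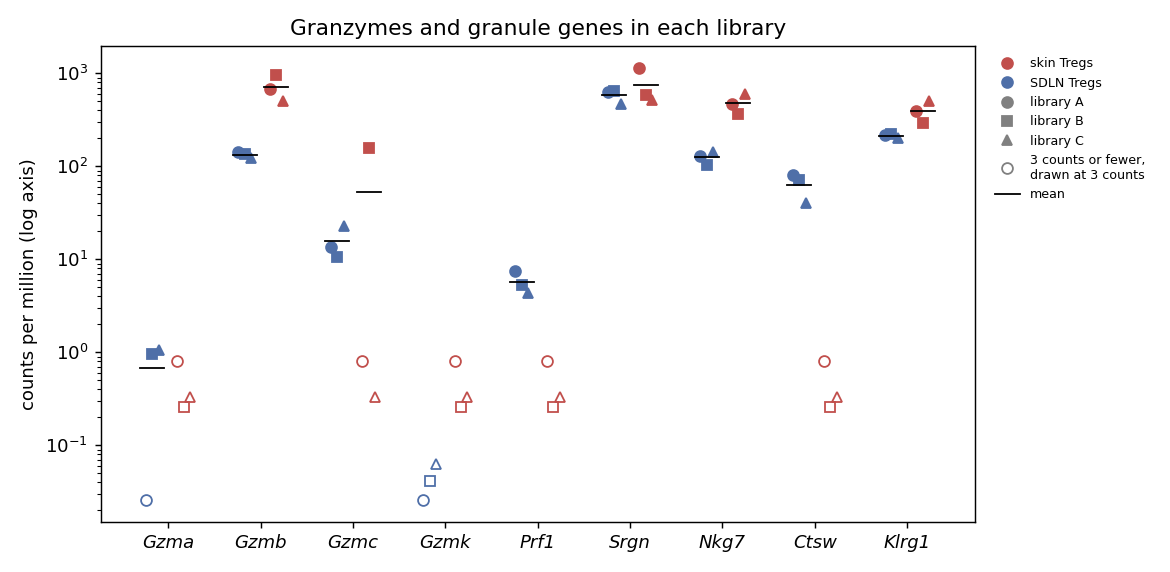
CPM (log axis) of the 9 granule genes in each library. Red symbols are skin Tregs and blue symbols SDLN Tregs, the shape gives the library letter, lines are means, and open symbols mark 3 counts or fewer, drawn at the level of 3 counts. Gzmb, Nkg7 and Klrg1 were higher in every skin library than in any SDLN library, while Gzma, Gzmk, Prf1 and Ctsw had 0 counts in skin.

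Among the granzymes, Gzmb was the one read in every skin library. It encodes granzyme B, which cleaves after aspartate and can start apoptosis in a target cell, and lies at chr14:56258838-56262260 (GRCm38, minus strand; ENSMUSG00000015437). It had 2528, 11383 and 4593 counts in skin libraries A to C, or 674, 969 and 508 CPM. In SDLN libraries A to C it had 142, 135 and 123 CPM. All skin libraries were above all SDLN libraries, and the lowest skin value was 3.57 times the highest SDLN value. The mean was 717 ± 234 CPM in skin and 133 ± 9.999 CPM in SDLNs (SD, n = 3 each), a ratio of 5.38. The log2 fold change was 2.41 (SE 0.51, 95% interval 1.16 to 3.65), with an edgeR adjusted p of 0.00969. Gzmb falls among 1760 genes that averaged 100 to 300 CPM in SDLNs, of which 28.1% exceeded 3 counts in each skin library and 1.25% were called higher in skin. The call was kept in 14 of 18 alternative settings, whose adjusted p ran from 2.1e-12 to 0.115. It was lost without SDLN library A (edgeR adjusted p = 0.0519, log2 fold change 2.41), with upper quartile scaling (0.0836) and with no filter on low counts (0.115). A block by column letter, added after the data were seen, also ended it (0.1003).

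Gzmc, the nearest granzyme to Gzmb, at chr14:56231441-56234656 on the same strand, was read in 1 skin library only. It had 1861 counts in skin library B, or 158 CPM, and 0 in skin libraries A and C. SDLN libraries A to C had 13.4, 10.7 and 22.7 CPM. The skin mean of 52.8 ± 91.5 CPM therefore rests on a single library, and the groups overlap. Its log2 fold change was 1.79 with a 95% interval of -5.57 to 9.15 (edgeR adjusted p = 0.803). Without skin library B, Gzmc was called higher in SDLNs (edgeR adjusted p = 0.00532).

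Gzma, the tryptase-like granzyme A, and Gzmk, its neighbour on chromosome 13, gave no comparison. Gzma had 0 counts in skin, and 0, 70 and 50 counts in SDLN libraries A to C, which is at most 1.06 CPM. That is close to what a count of 0 allows in skin library A, and a difference was not detectable at this depth. Gzmk had 0 counts in all 6 libraries. Of the other granzyme genes, Gzmd, Gzme, Gzmg and Gzmn had 0 counts everywhere, and Gzmf had 0 in skin and 133, 26 and 10 in SDLN libraries A to C. Gzmm had 318 counts in skin library B, 0 in the other skin libraries and 52 to 108 in SDLNs. The granzyme genes of chromosome 14 are close relatives, and since only unique hits were counted, reads that fit several of them may be missing and their values are uncertain.

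Perforin transcripts were not read in skin. Prf1 (chr10:61297833-61304680, plus strand; ENSMUSG00000037202) had 0 counts in each skin library and 7.52, 5.32 and 4.38 CPM in SDLN libraries A to C. The SDLN mean of 5.74 ± 1.61 CPM was at least 7.17-fold higher than the highest level that 0 counts allow in a skin library, for counting error alone. The edgeR adjusted p was 0.00323, and the call was kept in all 17 alternatives that could test the gene. Among the 4027 genes that averaged 1 to 10 CPM in SDLNs, 69.2% had no more than 3 counts in any skin library, so most genes of that level were unread in skin.

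The stretches before the starts of Gzmb, Gzmc, Nkg7 and Prf1 are shown because Gzmb and Nkg7 were read in all skin libraries, Gzmc in 1 and Prf1 in none. They come from RefSeq (GRCm38.p6), are given 5′ to 3′ on the gene's strand, and stop at the RefSeq start or, for Nkg7 and Prf1, at the GENCODE M21 start where that came first. Capitals mark matches to the AP-1 site TGANTCA, the Runx site TGTGGT, whose other strand reads ACCACA, or the CRE site TGACGTCA. The windows lie at chr14:56262335-56262584 (Gzmb, minus), chr14:56234658-56234907 (Gzmc, minus), chr7:43436888-43437072 (Nkg7, plus) and chr10:61297586-61297832 (Prf1, plus).
Gzmb: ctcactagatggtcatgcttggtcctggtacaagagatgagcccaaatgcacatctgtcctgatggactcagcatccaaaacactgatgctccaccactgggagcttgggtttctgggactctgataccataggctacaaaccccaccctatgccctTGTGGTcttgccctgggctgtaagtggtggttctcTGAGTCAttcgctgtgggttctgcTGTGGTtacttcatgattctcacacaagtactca
Gzmc: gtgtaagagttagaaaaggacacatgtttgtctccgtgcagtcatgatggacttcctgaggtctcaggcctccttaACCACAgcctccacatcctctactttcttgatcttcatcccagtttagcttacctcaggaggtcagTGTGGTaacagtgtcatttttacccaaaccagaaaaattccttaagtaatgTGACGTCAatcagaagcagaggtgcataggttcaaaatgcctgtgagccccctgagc
Nkg7: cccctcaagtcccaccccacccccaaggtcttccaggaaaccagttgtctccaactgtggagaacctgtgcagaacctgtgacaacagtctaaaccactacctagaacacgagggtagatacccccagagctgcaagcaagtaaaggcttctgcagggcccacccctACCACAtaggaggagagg
Prf1: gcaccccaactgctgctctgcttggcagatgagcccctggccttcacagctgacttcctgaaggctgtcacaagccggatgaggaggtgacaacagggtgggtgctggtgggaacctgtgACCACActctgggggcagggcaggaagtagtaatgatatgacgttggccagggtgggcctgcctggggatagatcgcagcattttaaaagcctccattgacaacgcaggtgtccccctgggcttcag

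Motifs were counted on both strands in the 250 bases before each RefSeq start, and no matches overlapped. Of the 9 members, 7 had an entry, and Ctsw and Klrg1 had none. Gzmb held the AP-1 letters 58 bases upstream, as did 6.75% of 32851 promoter windows, and was the only member with them. It also held the Runx letters at 93 and 34 bases upstream. A Runx match was found in 6 of the 7 members (not Gzmk), which had 8 windows, beside 14% of all windows. It did not separate the genes read in skin from those that were not. Srgn had 2 windows, and its match lay only in the one whose start is 19694 bases inside the GENCODE gene. The start of the Gzmk window lies 44943 bases inside that gene. Gzmc held a CRE match at 57 bases, found in 1.55% of windows. Nkg7 held a match to the T-box letters AGGTGTGA at 14 bases, in the part not printed, as did 1.12% of windows. These matches are letters in a window and were not tested as binding sites.

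Nkg7, which encodes a membrane protein of cytotoxic granules that takes part in their release, was the other member called higher in skin. It lies at chr7:43437073-43438249 (plus strand; ENSMUSG00000004612). Skin Tregs A, B and C had 473, 365 and 604 CPM, and SDLN libraries A to C had 130, 104 and 142 CPM. The groups did not overlap, and the lowest skin value was 2.57 times the highest SDLN value. The mean was 481 ± 119 against 125 ± 19.2 CPM (SD, n = 3 each). The log2 fold change was 1.96 (SE 0.61, 95% interval 0.45 to 3.47; edgeR adjusted p = 0.0423). This call was close to the threshold and was kept in 8 of 18 alternatives. It was lost without SDLN library A, B or C (edgeR adjusted p = 0.172, 0.151 and 0.0989) and without skin library B or C (0.0573 and 0.0972), with log2 fold changes of 1.40 to 2.10.

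Srgn, which encodes the granule proteoglycan and is expressed by many blood cell types, did not differ beyond the spread between libraries. Skin Tregs A, B and C had 1156, 583 and 517 CPM, and SDLN libraries A to C had 630, 641 and 467 CPM. Only skin library A stood above the SDLN values. Its log2 fold change was 0.26 (95% interval -0.59 to 1.10; edgeR adjusted p = 0.728). Srgn lies at chr10:62493833-62527451 (minus strand; ENSMUSG00000020077).

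Ctsw, the gene of cathepsin W, a cysteine protease of T and NK cells, was read in SDLNs alone. It had 80.0, 71.5 and 39.9 CPM in SDLN libraries A to C and 0 counts in each skin library. The SDLN mean of 63.8 ± 21.1 CPM was at least 79.7-fold higher than 0 counts allow in any skin library, for counting error alone. Ctsw was called higher in SDLNs (edgeR adjusted p = 0.00829), also in all 17 alternatives that could test it. Among the 3649 genes that averaged 30 to 100 CPM in SDLNs, 28.7% had no more than 3 counts in any skin library. Ctsw and Prf1 were also the members whose SDLN libraries all lay above every skin library, as 53.6% of all genes tested did. Ctsw (chr19:5465043-5468507, minus strand; ENSMUSG00000024910) overlaps Fibp on the other strand, and without a stated strand setting its counts are uncertain.

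Klrg1 encodes an inhibitory receptor for cadherins, found on differentiated T and NK cells and on some tissue Tregs. Skin Tregs A, B and C had 394, 293 and 500 CPM, and SDLN libraries A to C had 218, 222 and 203 CPM. All skin values were above all SDLN values, but by a factor of 1.32 at the nearest pair. The log2 fold change was 0.91 (SE 0.58, 95% interval -0.51 to 2.34) and did not pass the test (edgeR adjusted p = 0.316). It passed in 1 of 18 alternatives, DESeq2, with an adjusted p of 0.0294. With Gzmb and Nkg7, Klrg1 made 3 members whose skin libraries lay above every SDLN library, as 2.39% of all genes tested did. Klrg1 lies at chr6:122270596-122282882 (minus strand; ENSMUSG00000030114).

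**Figure D2:**
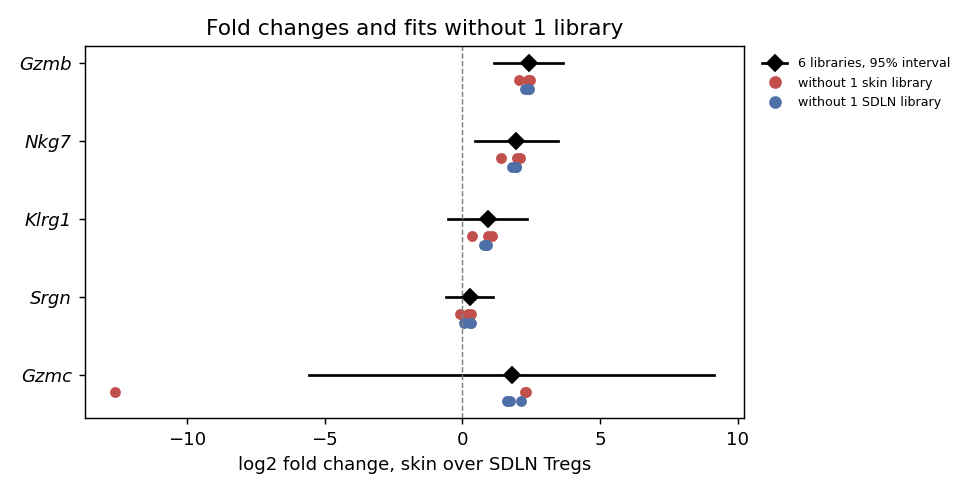
Log2 fold changes (skin over SDLN Tregs) of the 5 tested members read in at least 1 skin library. Diamonds and bars are the fit to 6 libraries with its 95% interval, red points are fits without 1 skin library and blue points fits without 1 SDLN library. Gzmb and Nkg7 stayed above 0 in every fit, whereas Gzmc moved from 1.79 to -12.64 when skin library B was left out.

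Which gene carried the skin signal depended on what was summed. Levels of different genes were compared per kilobase of exon. Over the granzyme genes and Prf1, Gzmb took 100% of the summed CPM per kilobase in skin libraries A and C and 77.5% in skin library B, where Gzmc took 20.4% and Gzmm 2.11%. In SDLNs Gzmb took 81.2% ± 5.84 (SD, n = 3), Gzmc 15.2% and Prf1 1.93%. Gzmb was thus the leading granzyme in both tissues.

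Over all 9 members, Nkg7 and Gzmb had the largest mean shares in skin per kilobase. Nkg7 took 31.1% ± 9.20 and Gzmb 29.1% ± 8.90 of the summed CPM per kilobase, a difference smaller than the spread between libraries. Not divided by length, Srgn led with 30.6%, followed by Gzmb with 29.9% and Nkg7 with 20.4%. Gzmb led in skin library B with 39.1%, Nkg7 led in skin library C with 41.2%, and Srgn and Nkg7 took 29.4% and 28.9% in skin library A. In SDLNs the order was different, with Srgn at 37.6%, Klrg1 at 21.7%, Nkg7 at 19.7% and Gzmb at 13.3%. In skin the mean levels were 526 ± 131 CPM per kilobase for Nkg7, 500 ± 163 for Gzmb, 342 ± 160 for Srgn and 280 ± 73.2 for Klrg1, and neighbours in this order differed by less than the larger of their SDs. In SDLNs they were 264 ± 44.3 for Srgn, 152 ± 7.02 for Klrg1, 137 ± 21.0 for Nkg7 and 92.9 ± 6.96 for Gzmb. There Klrg1 and Nkg7 differed by less than the larger SD, and the other neighbours by more.

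The difference in mean level per kilobase, skin minus SDLN, was summed over the 5 members where it was above 0. Gzmb made up 38.9% of that sum and Nkg7 37.2%. Klrg1, Srgn and Gzmc, which did not pass the test, made up 12.3%, 7.53% and 3.99%, that of Gzmc from skin library B alone. Of the 2 members called, Gzmb had the larger fold change and the smaller p, and its call was kept in more of the settings.

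**Figure D3:**
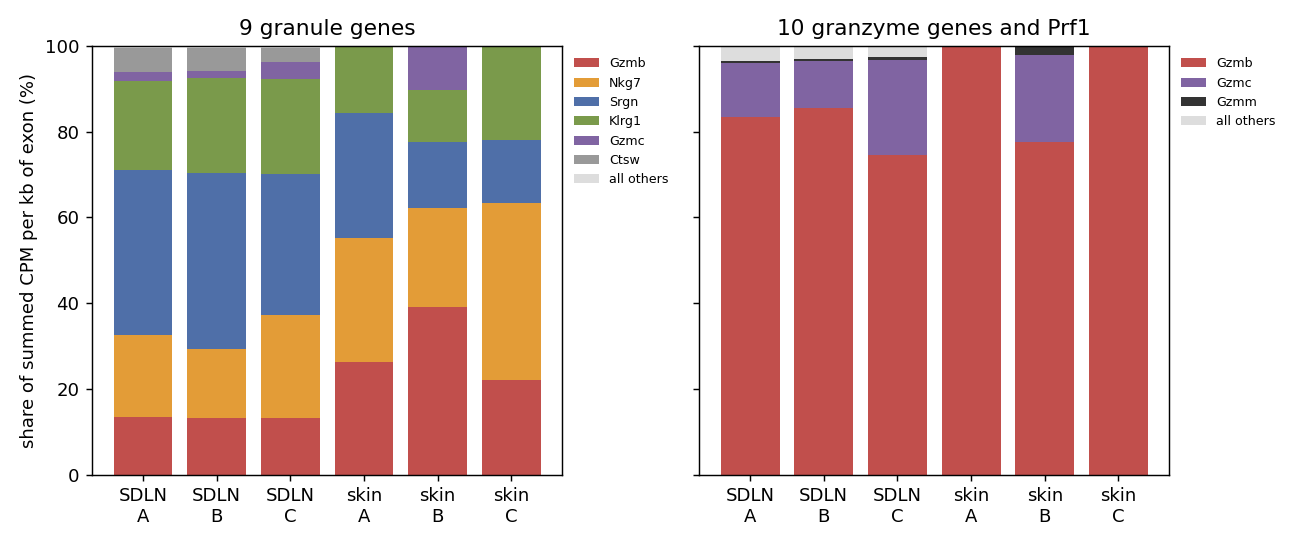
Share (%) of the summed CPM per kilobase of exon that each gene took in each library, over the 9 granule genes (left) and over 10 granzyme genes and Prf1 (right). In skin, Gzmb took 22.1% to 39.1% and Nkg7 23.2% to 41.2% of the left sum, and Gzmb took 77.5% to 100% of the right sum.

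Myeloid RNA took a larger part of the skin libraries, so the members were also set against T cell transcripts. A pan T cell list (Cd3e, Cd3g, Cd3d, Cd2, Trac and Lck) summed to 3187, 4492 and 4465 CPM in skin libraries A to C and to between 6979 and 9150 CPM in SDLNs. Per 1000 counts of this list, Gzmb had 212, 216 and 114 counts in skin libraries A to C and 18.6, 19.4 and 13.4 in SDLN libraries A to C. Nkg7 had 148, 81.3 and 135 counts in skin and 16.9, 14.9 and 15.5 in SDLNs. Klrg1 had 124, 65.3 and 112 counts in skin and 28.5, 31.8 and 22.2 in SDLNs. Srgn had 363, 130 and 116 counts in skin and 82.1, 91.8 and 51.1 in SDLNs, so on this scale its groups did not overlap. Scaled in this way, a setting chosen after the data were seen, the log2 fold change was 3.40 for Gzmb and 2.95 for Nkg7 (edgeR adjusted p = 0.00449 and 0.0106). Those of Klrg1 and Srgn were 1.87 and 1.43 and did not pass (edgeR adjusted p = 0.0618 and 0.113). The same scaling moved the median log2 fold change of 1623 genes read above 3 counts in all libraries from 0.28 to 1.33.

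Markers of other cells that carry granule genes were at 0 or in single skin libraries, apart from Tyrobp and the myeloid list. Cd8a and Cd8b1, which define CD8 T cells, had 0 counts in all skin libraries and summed to between 14.6 and 18.4 CPM in SDLNs. Their SDLN means were 5.02 and 11.3 CPM. At those levels 69.2% and 56.5% of genes had no more than 3 counts in any skin library. Such zeros therefore do not show that a cell type was absent, and Cd4, part of the gate, also had 0 counts in skin library A. Of 8 markers of NK cells and ILC1, 6 had 0 counts in all skin libraries, among them Ncr1 and Klrb1c. Their sum of 745, 105 and 7.97 CPM in skin libraries A to C came from Tyrobp, which myeloid cells also express, and from 958 counts of Klrd1 in skin library A, against 4.95 to 6.96 CPM in SDLNs. The gamma delta T cell list was at 0 in skin libraries A and B and had 1054 counts of Trdc in skin library C (117 CPM), against 19.6 to 28.1 CPM in SDLNs. Mast cell and basophil markers summed to 226 CPM in skin library A, mostly from 811 counts of Cma1, to 0 in skin libraries B and C and to 11.8 to 26.6 CPM in SDLNs. Of 15 myeloid markers, 11 were called higher in skin, 1, Itgam, was at 0 in all skin libraries and higher in SDLNs, and the part of myeloid cells in the levels of Gzmb, Nkg7, Srgn, Ctsc and Ctsh was not tested. The neutrophil list stood at no more than 0.800 CPM in any library.

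**Figure D4:**
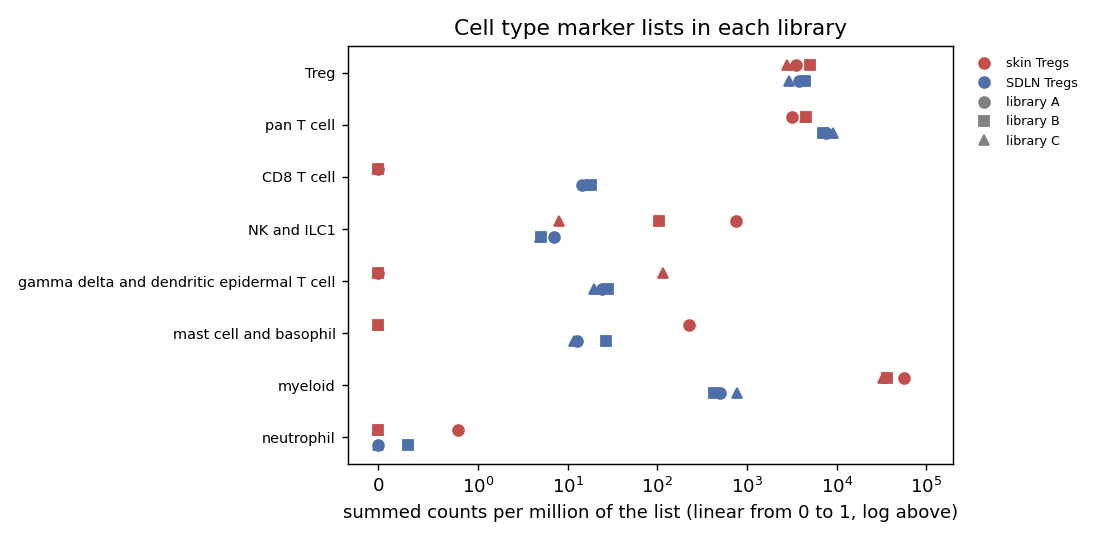
Summed CPM of each marker list in each library, on an axis that is linear from 0 to 1 and logarithmic above. Red symbols are skin Tregs and blue symbols SDLN Tregs, the shape gives the library letter, and symbols at the same value lie on top of each other. Myeloid markers were higher in all skin libraries (32746 to 56477 CPM) than in SDLNs, and CD8 T cell markers were at 0 in skin.

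The wider granule machinery held genes called in both directions. Of 38 genes listed, which cover 6 other granzymes, granzyme activation, inhibition, granule release, killing ligands and regulators, 37 were in the table and 31 were tested. In the edgeR fit, 2 were higher in skin and 7 in SDLNs, with a median log2 fold change of -0.06. Over all genes tested, 1.04% were higher in skin and 45.3% in SDLNs, with a median of -2.21. Over the 1623 genes above 3 counts in all libraries, the median was 0.28. Of the list, 12 genes had 3 counts or fewer in every skin library, 5 of them other granzymes. The 2 higher in skin both belong to the 5 genes of granzyme activation and sorting.

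Ctsc, whose product activates granzymes and which is also abundant in myeloid cells, had 1885, 1629 and 811 CPM in skin libraries A to C. SDLN libraries A to C had 196, 217 and 220 CPM, so the groups did not overlap. The log2 fold change was 2.67 (SE 0.36; edgeR adjusted p = 0.00326), close in size to that of Gzmb. Ctsh, the gene of cathepsin H, a lysosomal protease that can also process granzyme B, had 359 ± 204 CPM in skin and 5.33 ± 1.52 CPM in SDLNs (log2 fold change 5.93, SE 0.95; edgeR adjusted p = 0.00416). Ctsc was called in 17 of 18 alternatives, as was Ctsh. Of the receptors that sort granzymes to lysosomes, M6pr had 270 ± 220 CPM in skin and 414 ± 28.8 CPM in SDLNs, and Igf2r had 12.97 ± 12.7 and 273 ± 22.01 CPM. Neither passed the test (edgeR adjusted p = 0.904 and 0.195).

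No inhibitor of granzymes exceeded 3 counts in all skin libraries, and few genes of their SDLN levels did. The share was 6.06% of genes at 1 to 10 CPM in SDLNs, 4.44% at 10 to 30 CPM and 8.63% at 30 to 100 CPM. Serpinb9, an intracellular inhibitor of granzyme B that protects the cell that makes it, had 0 counts in all skin libraries. In SDLNs it had 13.2 ± 7.07 CPM, at least 16.5-fold higher for counting error alone (edgeR adjusted p = 0.0038). At its level, 10 to 30 CPM in SDLNs, 56.5% of 2680 genes had no more than 3 counts in any skin library. Of the 5 inhibitor genes, 3 were higher in SDLNs (Serpinb9, Serpinb6b and Serpinb1a, all at 0 in skin), a direction that 45.3% of all genes tested shared. The other two were each read in 1 skin library and did not pass the test. Serpinb6a had 91.6 CPM in skin library B, 0 counts in A and C, and 29.6 to 39.6 CPM in SDLNs. Serpina3g had 81.3 CPM in skin library C, 0 counts in A and B, and 27.1 to 44.2 CPM in SDLNs.

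Of 9 genes of granule docking and exocytosis in the table, 1 was called higher in SDLNs, beside 45.3% of all genes tested, and 0 in skin. Lyst, a regulator of lysosome size, had 0, 0 and 1 counts in skin libraries A to C and 12.1 ± 6.76 CPM in SDLNs (edgeR adjusted p = 0.00385), a level at which 56.5% of genes were unread in skin. Stx11, a syntaxin needed for granule fusion, had 825, 299 and 237 CPM in skin and 122 ± 11.5 CPM in SDLNs. Its groups did not overlap, but it did not pass the test (log2 fold change 1.70, SE 0.61; edgeR adjusted p = 0.0708). DESeq2 and 2 other alternatives of 18 did call Stx11, higher in skin. Stx11, Stxbp2, Vamp8, Lamp1 and Ap3b1 exceeded 3 counts in all skin libraries, Lamp1 by few counts in A and C and Ap3b1 in C. Vamp8, a membrane fusion protein of secretory granules, had 504 ± 177 CPM in skin and 288 ± 102 CPM in SDLNs (edgeR adjusted p = 0.412).

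Of the killing ligands and cytokine genes, none exceeded 3 counts in more than 1 skin library. They averaged 3.52 to 64.4 CPM in SDLNs, levels at which 4.44% to 8.63% of genes exceeded 3 counts in every skin library. Tnfsf10, the gene of TRAIL, had 0 counts in skin and 59.3 ± 22.7 CPM in SDLNs. That was at least 74.1-fold higher for counting error alone (edgeR adjusted p = 0.00753). At its level, 30 to 100 CPM in SDLNs, 28.7% of genes were unread in skin. Ifng, the gene of interferon gamma, also had 0 counts in skin and was higher in SDLNs, at 3.52 ± 0.50 CPM (edgeR adjusted p = 0.00322), so 2 of 4 genes were called in the direction of 45.3% of all genes tested. Fasl had 2624 counts in skin library C and 0 in skin libraries A and B. Of 8 regulators, Tbx21, which encodes the transcription factor T-bet, was the 1 called, with 0, 1 and 7 counts in skin libraries A to C and 13.8 ± 5.09 CPM in SDLNs (edgeR adjusted p = 0.0219). Eomes had 0 counts in skin and at most 100 counts in an SDLN library. Id2, Zeb2 and Hopx exceeded 3 counts in all skin libraries, and Bhlhe40 did so in A and B. Id2, a regulator of innate and effector lymphocytes that myeloid cells also express, had 519, 58.0 and 324 CPM in skin libraries A to C and 63.7 to 76.6 CPM in SDLNs, so the groups overlap (edgeR adjusted p = 0.182). Zeb2, Hopx and Bhlhe40 did not pass either (edgeR adjusted p = 0.480, 0.318 and 0.668). The median log2 fold change of the 7 regulators tested was 1.75, though none was called higher in skin. The list summed to 1417, 370 and 328 CPM in skin libraries A to C, against 173 to 237 CPM in SDLNs. Different genes carried these sums: Bhlhe40, Id2 and Runx3 in A (596, 519 and 243 CPM), mainly Bhlhe40 in B (268 CPM) and Id2 in C (324 CPM). Runx3 had 0 and 2 counts in B and C, and Prdm1 had 0, 32 and 0 in A to C. Neither passed (edgeR adjusted p = 0.971 and 0.184).

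**Figure D5:**
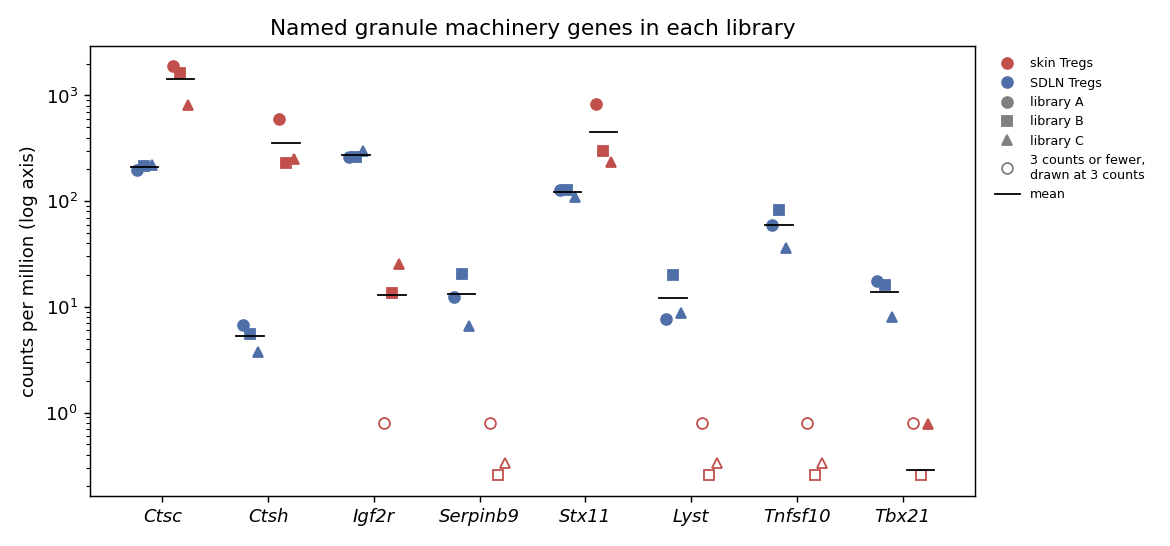
CPM (log axis) of the granule machinery genes named by rule, in each library. Red symbols are skin Tregs and blue symbols SDLN Tregs, the shape gives the library letter, lines are means, and open symbols mark 3 counts or fewer, drawn at the level of 3 counts. Ctsc, Ctsh and Stx11 were higher in every skin library, and the other genes shown were lower.

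In the granzyme and mast cell protease cluster on chromosome 14, Gzmb was the only gene above 3 counts in all skin libraries. Gzmc and Gzmf are its nearest neighbours there, and Cma1, at the other end, had counts in skin library A alone.

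Over the 6 libraries, the genes whose log2 level was most like that of Gzmb were P2rx4, S100a6, Fcgrt, Anxa1 and Itm2b, with Pearson r of 0.993 to 0.997, among 8267 genes. P2rx4, first in that order, had 217, 295 and 159 CPM in skin libraries A to C and 44.4 to 54.8 CPM in SDLNs. Ctsc came at rank 20, Nkg7 at 125, Klrg1 at 266 and Srgn at 657, with r of 0.98, 0.89, 0.76 and 0.37. These values describe 6 libraries that form groups of 3 and share their depth and composition.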

How the data were processed

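RNA of Tregs sorted from skin and SDLNs of neonatal Foxp3-GFP mice was sequenced in 6 libraries, 3 per tissue. The authors trimmed reads with Trimmomatic 0.36, aligned them to GRCm38 with STAR 2.5.2b and counted unique hits within exons with featureCounts (Subread 1.5.2), and deposited the raw counts of each Ensembl gene, not normalized. Strand setting, annotation release, treatment of duplicates and unique molecular identifiers are not given in the sources used here, so the floors of 3 counts cover counting error only, while the 95% intervals come from the edgeR fit and hold the spread between libraries. The tissue label reads skin for node samples too, and groups were taken from sample titles. Columns carry letters and titles carry numbers, so columns were assigned to a tissue only.

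Symbols, positions and exon lengths came from GENCODE M21 (GRCm38), which matched 48970 of 49315 identifiers, and promoter sequences came from RefSeq (GRCm38.p6). Counts were tested with edgeR 4.0.16 in R 4.3.3 (filterByExpr, TMM, glmQLFit with robust estimation, glmQLFTest, tissue as the only term), with Benjamini-Hochberg adjustment over 13572 genes and a threshold of 0.05. The study's methods state no test for this comparison. SE was derived from the F statistic. CPM used the library total, and levels of different genes were divided by kilobases of exon. No 2 libraries held identical values. Members and gene lists were chosen with earlier results of these data known. All members are named. Of the machinery list, genes that passed the threshold with a mean of at least 10 CPM in either group, or whose groups did not overlap with a skin mean of at least 10 CPM, are named. Others were named after their values were seen. Vamp7 and Trgv3 were not matched and are not analysed here. Genes most like Gzmb were those with the highest Pearson r of log2(CPM + 1) among genes averaging at least 10 CPM. Alternatives were other scalings (TMMwsp, upper quartile, size factors of DESeq2, no scaling beyond the library total, and the pan T cell list, added after the data were seen), DESeq2 1.42.0, limma 3.58.1 voom with quality weights, other filters, libraries drawn down to 3748669 counts, non-robust dispersions, a threshold of 0.01, a block by column letter (also added then), shares not divided by length or pooled over counts, and leaving out each library.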

Additional observations from a re-analysis of the deposited data

How the results depend on the processing

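Fold changes of the tested members mostly kept their direction, but the calls in skin were less stable than those in SDLNs. Gzmb kept its call in 14 of 18 alternatives and Nkg7 in 8 of 18. Prf1 and Ctsw kept theirs in all 17 that could test them. The number of members higher in skin, 2 in the fit reported, was 3 with DESeq2. It was 0 with upper quartile scaling (2 at an unadjusted p under 0.05) and with no filter on low counts (1). It was 1 with at least 10 counts required in every library, with non-robust dispersions and at a threshold of 0.01. With 1 library left out, it was 0 without SDLN library A, 2 without skin library A and 1 in each other fit. The number higher in SDLNs, 2, became 0 with at least 10 counts in every library, since that filter removes Prf1 and Ctsw, and was 2 to 3 with 1 library left out. Of the machinery genes, 2 were higher in skin, against 1 with upper quartile scaling, 4 with DESeq2 and 2 to 4 with 1 library left out (4 without skin library C). Those higher in SDLNs, 7, became 11 with limma voom, 0 under the minimum of 10 counts and 7 to 11 with 1 library left out (11 without skin library B or C).

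The log2 fold change of Gzmb was 8.78 with upper quartile scaling (edgeR adjusted p = 0.0836), 2.33 without a filter (0.115) and 2.05 to 2.45 with 1 library left out. Upper quartile scaling moved the median of 1623 genes read in all libraries from 0.28 to 6.82, so values under it are to be read against that shift. That of Nkg7 was 8.35 with upper quartile scaling (edgeR adjusted p = 0.0913), 1.88 without a filter (0.248), 1.62 with at least 10 counts (0.0696), 1.96 with non-robust dispersions (0.0516) and 1.40 to 2.10 with 1 library left out. Gzmc turned to -5.08 with limma voom and ran from -12.64 to 2.29 with 1 library left out, the lowest without skin library B. Srgn turned to -0.041 with at least 10 counts and ran from -0.076 to 0.32 with 1 library left out, the lowest without skin library A. Klrg1 was 0.97 and passed with DESeq2 (adjusted p = 0.0294). Not divided by length, Nkg7 took 20.4%, Gzmb 29.9% and Srgn 30.6% of the members' skin sum. The causes of the other changes were not tested.

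Count columns carry letters that nothing ties to the labels' replicate numbers. A replicate block by column letter was fitted as an alternative chosen after the data were seen. Whether the same letter marks the same mice is not stated. Deviations from the tissue means, over 1623 genes, correlated at 0.050, -0.013 and 0.196 between the libraries lettered A, B and C, and skin library A correlated best with SDLN library B (0.162), so the letters did not show that libraries are paired. With the block in edgeR, 0 members were higher in skin (1 at an unadjusted p under 0.05) and 2 in SDLNs, and 1 machinery gene was higher in skin and 6 in SDLNs, beside 61 and 5633 of all genes. The log2 fold change was 2.34 for Gzmb and 1.88 for Nkg7 (edgeR adjusted p = 0.1003 and 0.372), and -8.03 for Gzmc.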
